A study of Homo sapiens with 19 samples.

Results

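The miR-378 family was followed across RNA fractions of the human cell line Caco-2, which is an established line of colorectal epithelium. The 4 members described here, hsa-miR-378a-3p, hsa-miR-378c, hsa-miR-378d and hsa-miR-378i (written below without the species prefix), were picked by name from the 1043 miRNAs listed in the count files. They were picked because their share of counts in S100 as a family was already known to be high, which is not so of miR-378i alone. The levels of all 4 members below are therefore a description and carry no test. Small RNA was sequenced from 5 groups: S100, the supernatant left after a 100000 xg spin of conditioned medium (3 libraries used); P100, the pellet of that spin (4); P40, the pellet of the preceding 40000 xg spin (4); total extracellular RNA (exRNA) of the debris-cleared medium (4); and lysate of the cells (3). All groups came from cells labelled wild type, grown with 20% FBS to 80% confluence and then kept for 24 h in medium free of serum and antibiotics. RNA of S100 and total exRNA was precipitated before Trizol, while P100, P40 and lysate were taken up in Trizol directly, so fraction and RNA preparation cannot be told apart wherever S100 or total exRNA is set against one of the other 3 groups. Replicate numbers equal the labelled batch numbers, and no label says that replicates were separate cultures, so errors and p-values cover no more than the spread among these libraries.

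miR-378a is made from a hairpin inside PPARGC1B, the gene of a coactivator of mitochondrial and oxidative metabolism. Its 3p arm is known from mouse studies as a regulator of lipid and energy metabolism in liver, muscle and fat, and the 2 arms have separate targets. A miRNA finds its targets mainly through its seed, bases 2 to 8, so family members with 1 seed are expected to share many targets. Outside cells, miRNAs travel in vesicles and other particles that can be pelleted, and in protein complexes that largely stay in the supernatant. All shares below are shares of the miRNA counts of a library and say nothing of the amount of RNA in a fraction.

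The mature sequences show how close the members are and where they differ. They are RefSeq sequences on GRCh38.p14, written 5′ to 3′, with the seed in capitals. No RefSeq mature sequence was found for miR-378d, so it is named only.
miR-378a-3p: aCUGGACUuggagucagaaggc
miR-378c: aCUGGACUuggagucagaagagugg
miR-378i: aCUGGACUaggagucagaagg
The 3 sequences share the seed CUGGACU. Of 2370 human mature miRNAs in the RefSeq table, which lacks miR-378d and miR-378e, 7 have this seed. miR-378c is 25 bases long and is identical to the 22-base miR-378a-3p over the first 20 bases, then differs by G21A and C22G. miR-378i is 21 bases long and differs by U9A, just after the seed. In these tokens miR-378a-3p's base comes first, positions count from 1 at its 5′ end, and the member's base comes last. A read of 20 bases or fewer from the 5′ end therefore fits miR-378a-3p and miR-378c equally. The handling of reads that fit several miRNAs is not given in the sources used here, so the split between these 2 names is uncertain. Without a sequence for miR-378d, the reads it may share with the other members could not be judged.

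On GRCh38, the miR-378a hairpin lies at chr5:149732825-149732890 on the plus strand, inside an intron of PPARGC1B on the same strand. The miR-378c hairpin lies at chr10:130962588-130962668 on the minus strand and overlaps no other gene of GENCODE. The miR-378i hairpin lies at chr22:41923222-41923297 on the minus strand, where some transcripts of TNFRSF13C, which codes for a receptor on B cells, have an exon. In the miR-378a hairpin below, capitals mark the 2 mature arms, miR-378a-5p first and miR-378a-3p second.
MIR378A: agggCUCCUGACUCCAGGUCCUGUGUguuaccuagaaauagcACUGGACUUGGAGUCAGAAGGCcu
The 5p arm has another seed, UCCUGAC. It is no member, and its level can be tested.

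The 18 libraries held between 10017 and 225290 miRNA counts, with the 3 S100 libraries (198878 to 225290) the deepest and P100 (10017 to 27027) and P40 (10490 to 26096) the shallowest. Replicate 1 of S100, with 48 counts in all, was not used, except in 1 alternative fit that kept it in. A count of 0 allows a share of up to 0.00133% in the deepest library and up to 0.0300% in the shallowest (3 counts). No unique molecular identifiers were used, so these limits and all intervals below cover counting error only. All 8 colorectal epithelial markers, such as miR-192-5p and miR-200c-3p, had counts in every group. They summed to 2.59% to 2.95% in S100, 2.97% to 4.37% in P100, 3.655% to 4.265% in P40, 4.45% to 5.40% in total exRNA and 4.31% to 5.56% in lysate. Their sum was thus lowest in S100. Of 7 striated muscle miRNAs, miR-206 and miR-208a-3p were at 0 everywhere, and the list summed to 0.0110% to 0.0131% in S100, 0.0222% to 0.0300% in P100, 0.0105% to 0.0575% in P40, 0.00871% to 0.0373% in total exRNA and 0 to 0.0140% in lysate. The 6 blood miRNAs summed to 0.00799% to 0.0151% in S100, 0.120% to 0.266% in P100, 0.229% to 0.319% in P40, 0.0871% to 0.232% in total exRNA and 0.0401% to 0.0439% in lysate, where the red cell miRNA miR-451a was at 0. The liver miRNA miR-122-5p had 0.0307% to 0.0498% in S100, 0.0222% to 0.0599% in P100, 0.0498% to 0.0833% in P40, 0.0104% to 0.0465% in total exRNA and 0.0146% to 0.0576% in lysate. The 4 mesenchymal and endothelial miRNAs summed to 0.0549% to 0.0769% in S100, 0.0300% to 0.0645% in P100, 0.0210% to 0.0833% in P40, 0.0390% to 0.0747% in total exRNA and 0.0166% to 0.0227% in lysate. The part of these other cell types in the values below was not tested.

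Together the 4 members made up 5.82% ± 0.24 of miRNA counts in S100 (SD, n = 3). Their share was 0.563% ± 0.033 in P100 (n = 4), 1.04% ± 0.10 in P40 (n = 4), 0.698% ± 0.153 in total exRNA (n = 4) and 1.49% ± 0.18 in lysate (n = 3). Every S100 library lay above every other library, and the family's share was lowest in P100. Nearly all of this was miR-378a-3p, which held 91.9% of the family's counts in S100 (exact 95% binomial interval 91.6% to 92.2%), 96.9% in P100 (94.8% to 98.3%), 95.3% in P40 (93.6% to 96.8%), 93.2% in total exRNA (91.8% to 94.5%) and 97.4% in lysate (96.8% to 97.9%), with the libraries of a group pooled.

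miR-378a-3p, the dominant arm of its hairpin, had 11095, 11643 and 11569 counts in the S100 libraries, which is 5.58%, 5.17% and 5.29% of their counts. In P100 it had 100, 132, 150 and 52 counts, or 0.554%, 0.568%, 0.555% and 0.519%. In P40 it had 117, 203, 269 and 108 counts, or 0.812%, 1.07%, 1.03% and 1.03%. The exact 95% binomial intervals of the 4 P100 libraries overlapped (0.388% to 0.680% in the shallowest), and each P100 library lay below each P40 library. Total exRNA had 275, 506, 273 and 174 counts, or 0.715%, 0.821%, 0.555% and 0.505%. Lysate had 535, 2033 and 1095 counts, or 1.43%, 1.29% and 1.66%. The order of the levels was thus S100, lysate, P40, total exRNA and P100, with no overlap between S100 and lysate or between lysate and P40. Total exRNA overlapped its neighbours in this order, P40 above and P100 below. Ranked by abundance within a library, miR-378a-3p stood between places 4 and 6 in S100, 28 and 34 in P100, 18 and 23 in P40, 24 and 42 in total exRNA, and 13 and 17 in lysate.

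**Figure D1:**
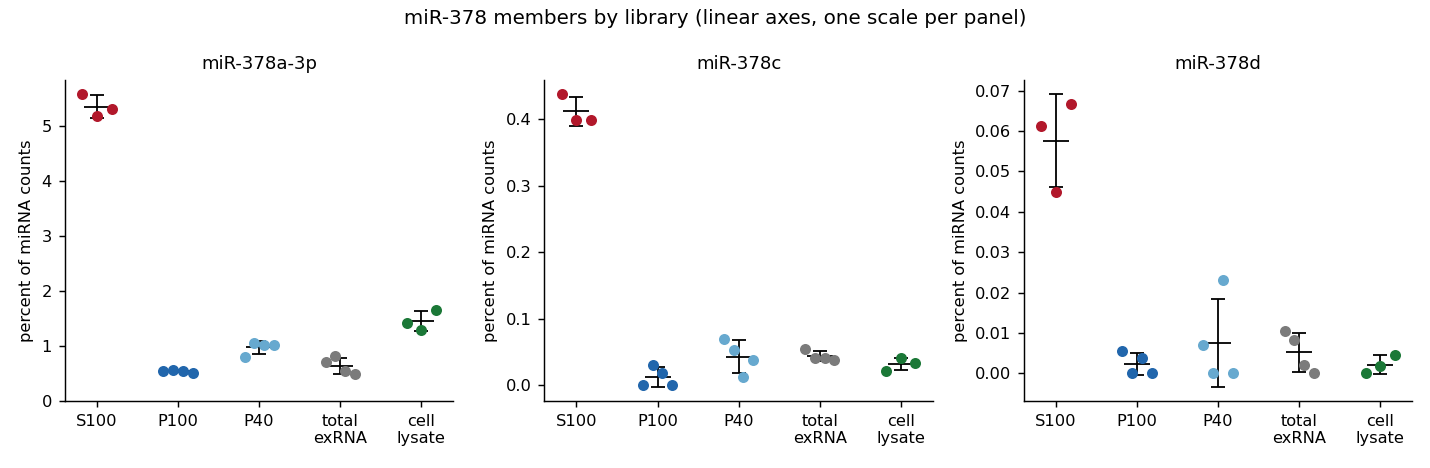
Share of miRNA counts (percent, linear axis from about 0, one scale per panel) held by miR-378a-3p, miR-378c and miR-378d in each library. Points are libraries, black bars the mean ± SD of a group. In each panel the 3 S100 libraries sit above all others, at 5.17% to 5.58% for miR-378a-3p.

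miR-378c, a longer member from its own hairpin, had 870, 898 and 872 counts in S100. It had 0, 7, 5 and 0 counts in P100, and 10, 10, 3 and 4 in P40. Total exRNA had 21, 25, 20 and 13 counts, and lysate 8, 63 and 22. Its mean share of counts was 0.412% ± 0.022 in S100 (SD, n = 3). It was 0.0122% ± 0.0148 in P100 (n = 4), 0.0429% ± 0.0245 in P40 (n = 4), 0.0434% ± 0.0076 in total exRNA (n = 4) and 0.0316% ± 0.0095 in lysate (n = 3). Outside S100 the groups lay close together. P40, total exRNA and lysate overlapped, and P100, with 2 of 4 libraries at 0, was below total exRNA without overlap.

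miR-378d, made from the hairpins MIR378D1 and MIR378D2, had 122, 101 and 146 counts in S100. It had 1, 0, 1 and 0 counts in P100, 1, 0, 6 and 0 in P40, 4, 5, 1 and 0 in total exRNA, and 0, 3 and 3 in lysate. The pooled share in S100 was 22.5 times that in P100 (exact 95% counting interval 6.18 to 186.4), 5.74 times that in P40 (2.76 to 14.4), 10.5 times that in total exRNA (5.67 to 22.2) and 24.9 times that in lysate (11.3 to 68.4). P40 replicate 3 held 6 of the 7 P40 counts. Outside S100, miR-378d stood at 0 to 6 counts a library, too few to order the groups.

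miR-378i had 3, 2 and 2 counts in the S100 libraries and 0 in the other 15. Its pooled S100 level, 7 of 642660 counts, or a mean share of 0.00110%, lies under the 0.00191% that a count of 0 allows in the deepest of the other libraries. With the libraries of a group pooled, 3 counts were taken as the limit for a count of 0. The S100 level of miR-378i was 0.28 times this limit in P100 and 0.25 times in P40. It was 0.67 times the limit in total exRNA and 0.95 times in lysate. A difference from any 1 of these groups was not detectable at this depth, and the other 15 libraries were not pooled together. miR-378i is 1 base away from miR-378a-3p, and the part of misread miR-378a-3p molecules in its counts was not tested.

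Between fractions, miR-378a-3p, miR-378c and miR-378d were each higher in all S100 libraries than in all libraries of P100, P40, total exRNA and lysate, on normalised values (CPM, counts scaled to library size, with TMM factors). The same held for 33.9% of the 227 miRNAs tested against P100, 27.3% against P40, 33.9% against total exRNA and 35.7% against lysate, and nothing is read from the members' count since their levels chose them. These 3 of the 4 members passed the filter on low counts, miR-378d through S100 alone, and miR-378i did not. The edgeR log2 fold change of miR-378a-3p was 3.24 ± 0.26 (SE) for S100 over P100, 2.61 ± 0.26 over P40, 3.17 ± 0.26 over total exRNA and 1.69 ± 0.28 over lysate. The median over all tested miRNAs was -0.01, -0.30, -0.34 and -0.04 in these comparisons. Without the filter on low counts the miR-378a-3p values were 3.89, 3.27, 3.63 and 2.40, and the median of the tested miRNAs moved up by 0.65, 0.67, 0.46 and 0.70 in the same comparisons. For miR-378c the log2 fold change was 4.78 ± 0.64 for S100 over P100 (5.45 without P100 replicate 2), 3.46 ± 0.58 over P40, 3.37 ± 0.55 over total exRNA and 3.50 ± 0.61 over lysate. For miR-378d it was 4.37 ± 0.98 over P100, 2.81 ± 0.79 over P40 (5.10 without P40 replicate 3), 3.54 ± 0.74 over total exRNA and 4.41 ± 0.88 over lysate (5.34 without lysate replicate 3).

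The other 6 comparisons concern miR-378a-3p mainly, since the minor members had few counts there. In P100 over P40 its log2 fold change was -0.62 ± 0.24 (SE), without overlap between the groups, as for 6.17% of tested miRNAs in that direction. Both pellets were taken up in Trizol directly, and so was lysate. P100 over lysate gave -1.54 ± 0.25 and P40 over lysate -0.92 ± 0.25 (-0.57 by library size alone), again without overlap, which 22.9% and 13.2% of tested miRNAs shared. Total exRNA over lysate gave -1.48 ± 0.25 without overlap, shared by 22.9%. P100 over total exRNA (-0.06 ± 0.24) and P40 over total exRNA (0.56 ± 0.24) overlapped. miR-378c was lower without overlap in P100 than in total exRNA (-1.41 ± 0.64, and -2.10 without P100 replicate 2), as were 17.6% of tested miRNAs.

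Where 2 groups do not overlap, every pair of their libraries must have the same sign. The signs within labelled batches therefore add nothing here, and the sizes are a description. Within labelled batches, the log2 difference of miR-378a-3p was positive in every S100 pair. It was 3.32, 2.88 and 3.52 for S100 over P100 in batches 2, 3 and 4, 2.38, 2.38 and 2.82 over P40, and 2.92, 3.26 and 3.64 over total exRNA. Over lysate it was 1.92 and 1.46 in batches 2 and 3, the batches with both groups. P100 was below P40 in all 4 batches, by -0.32 to -0.94, and below lysate in all 3, by -1.40 to -1.65. Against lysate of the same batch, P40 lay between -0.46 and -1.33, and total exRNA was lower in all 3 batches, by up to -1.80.

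**Figure D2:**
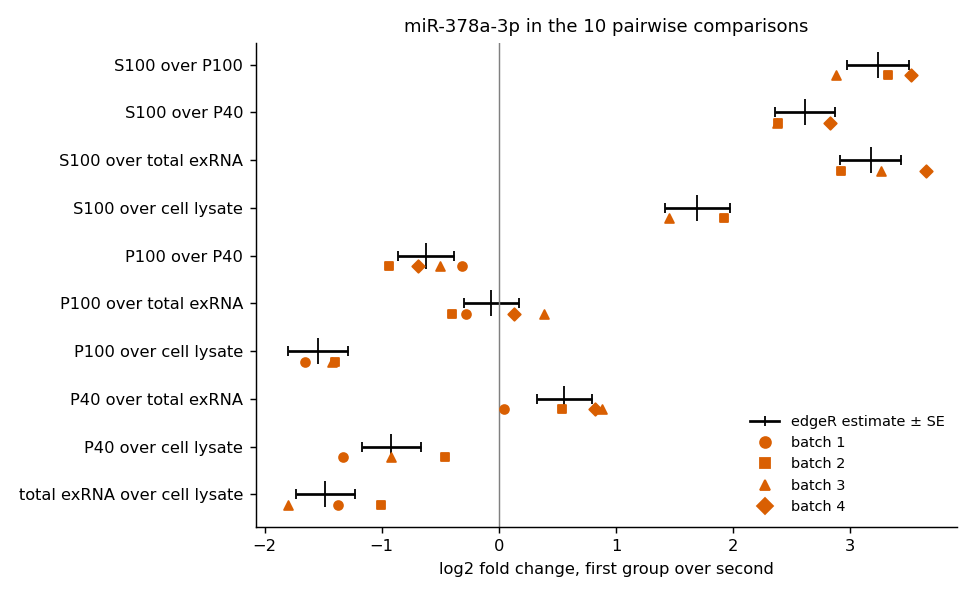
log2 fold change of miR-378a-3p in the 10 comparisons, first named group over second. Black bars are edgeR estimates ± SE and coloured markers are differences within a labelled batch. The 4 comparisons of S100 lie to the right of 0, between 1.69 and 3.24, and P100 over total exRNA lies at -0.06.

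The make-up of the family also differed between fractions. miR-378c held 7.20%, 7.10% and 6.93% of the family's counts in the S100 libraries. It held 0, 5.04%, 3.21% and 0 in P100, and 7.81%, 4.69%, 1.08% and 3.57% in P40. S100 was above every P100 library and overlapped P40. In total exRNA it held 7.00%, 4.66%, 6.80% and 6.95%, and in lysate 1.47%, 3.00% and 1.96%. S100 and total exRNA overlapped, and each of their libraries lay above each lysate library. With libraries pooled, the share was 7.07% in S100 (exact 95% binomial interval 6.82% to 7.34%), 2.68% in P100 (1.39% to 4.63%), 3.69% in P40 (2.45% to 5.33%), 6.00% in total exRNA (4.78% to 7.42%) and 2.47% in lysate (2.00% to 3.02%). S100 and total exRNA, the groups with the higher shares, are the 2 groups whose RNA was precipitated first, and its part in this difference cannot be told apart from that of the fraction. The unknown split of short reads between miR-378a-3p and miR-378c applies here as well. miR-378d held 0.989% of the pooled family counts in S100 (0.891% to 1.09%), 0.446% in P100 (0.0541% to 1.60%), 0.958% in P40 (0.386% to 1.96%), 0.759% in total exRNA (0.365% to 1.39%) and 0.159% in lysate (0.0586% to 0.347%). At equal depth the mean of its shares in lysate was 0.429%, against 0.137% ± 0.134 (SD, n = 3) at full depth. The equal-depth value comes from 1 random draw out of libraries that together held 6 counts of miR-378d. The pooled intervals cover counting error alone, and with 2 to 10 counts outside S100 the share of miR-378d could not be ordered between the groups.

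**Figure D3:**
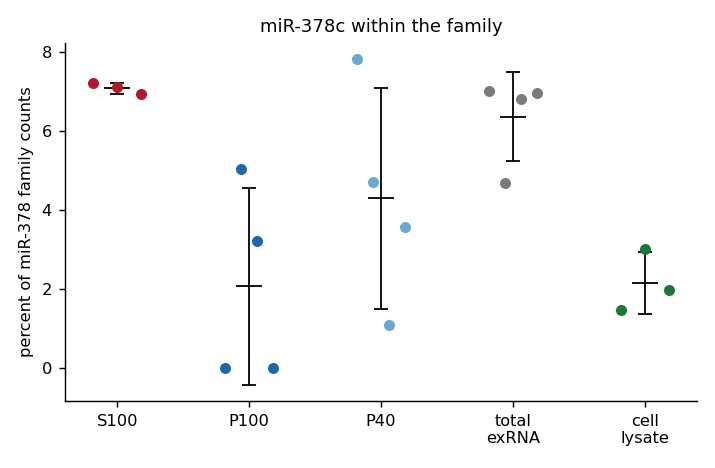
Share of the miR-378 family counts held by miR-378c in each library (percent, linear axis). Points are libraries, black bars the mean ± SD of a group. The S100 libraries lie between 6.93% and 7.20% and the lysate libraries between 1.47% and 3.00%.

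miR-378a-5p, the opposite arm of the miR-378a hairpin printed above, was not used in choosing the members. It rose in S100 against each of the other 4 groups. It had 475, 427 and 419 counts in S100, 7, 17, 7 and 11 in P100, 2, 7, 3 and 4 in P40, 14, 32, 27 and 22 in total exRNA, and 3, 82 and 13 in lysate. As a share of counts this was 0.207% ± 0.028 in S100 (SD, n = 3). Its share was 0.0619% ± 0.0376 in P100 (n = 4), 0.0251% ± 0.0143 in P40 (n = 4), 0.0518% ± 0.0114 in total exRNA (n = 4) and 0.0266% ± 0.0229 in lysate (n = 3). All S100 libraries lay above all others, and the other 4 groups overlapped one another in every pair. By edgeR's quasi-likelihood F test, with p-values adjusted by Benjamini-Hochberg over the 227 tested miRNAs, the log2 fold change was 1.79 ± 0.54 (SE) for S100 over P100 (adjusted p = 0.00688), where 28.6% of tested miRNAs were called higher. At equal depth, which is 1 random draw of counts, this call was lost (1.54, edgeR adjusted p = 0.0651). Over P40 the edgeR log2 fold change was 3.26 ± 0.60 (adjusted p = 0.000103, 25.1% called higher). Over total exRNA it was 2.13 ± 0.52 (edgeR adjusted p = 0.0011, 29.5% called higher). Over lysate it was 2.69 ± 0.59 (edgeR adjusted p = 0.000375, 32.2% called higher), and 3.94 without lysate replicate 2, the library with 82 counts. Since all S100 libraries lay above all others, the same arm had to be higher within each batch, and only the sizes are described. In log2 it was higher by 1.70, 2.43 and 0.96 over P100 in batches 2, 3 and 4, and by 2.60, 3.76 and 2.69 over P40. Over total exRNA it was higher by 2.29, 1.78 and 1.80, and over lysate by 1.96 and 2.92 in batches 2 and 3.

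In the other 6 comparisons miR-378a-5p did not pass the edgeR test. Its log2 fold change was 0.90 ± 0.57 (SE) for P100 over lysate (edgeR adjusted p = 0.226) and 0.56 ± 0.55 for total exRNA over lysate (adjusted p = 0.452), with the opposite sign to miR-378a-3p in the same comparisons. Without lysate replicate 2 the P100 value was 1.94 (edgeR adjusted p = 0.0291). It was 1.47 ± 0.61 for P100 over P40 (edgeR adjusted p = 0.147), 0.34 ± 0.53 for P100 over total exRNA (0.690), -1.13 ± 0.59 for P40 over total exRNA (0.221) and -0.57 ± 0.62 for P40 over lysate (0.531). Within labelled batches, P100 was above P40 in all 4, by 1.51, 0.91, 1.33 and 1.73 in batches 1 to 4, and P40 was below total exRNA in all 4, by -1.34, -0.31, -1.98 and -0.89. P100 was above lysate in all 3 shared batches, by 1.72, 0.26 and 0.49. P100 over total exRNA, P40 over lysate and total exRNA over lysate had both signs between batches. With the replicate block, P100 over P40 gave 1.48 (edgeR adjusted p = 0.133) and P40 over total exRNA -1.24 (adjusted p = 0.13).

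The balance of the arms differed between the fractions as well. miR-378a-5p made up 4.11%, 3.54% and 3.50% of the counts of both arms in S100. It made up 6.54%, 11.4%, 4.46% and 17.5% in P100, and 1.68%, 3.33%, 1.10% and 3.57% in P40. Total exRNA had 4.84%, 5.95%, 9.00% and 11.2%, and lysate 0.558%, 3.88% and 1.17%. Each P100 and total exRNA library was above each P40 and lysate library. This held also for lysate replicate 2, the highest of its group. Counts of the 5p arm were low in P100, where replicate 4 had 11 of 63 (exact 95% binomial interval 9.05% to 29.1%). P100 and P40 were prepared alike, and their pooled shares were 8.82% of 476 counts and 2.24% of 713 counts. No test was made of the balance, since miR-378a-3p enters it.

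**Figure D4:**
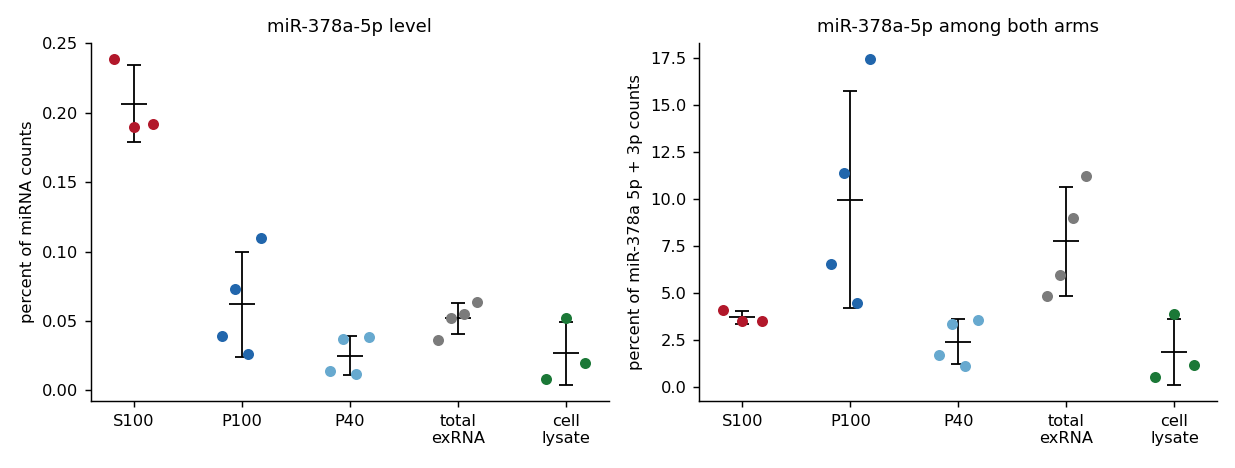
Left, share of miRNA counts held by miR-378a-5p. Right, share of miR-378a-5p in the counts of both miR-378a arms. Both axes are linear percentages, points are libraries and black bars the mean ± SD. On the left S100 is highest (0.190% to 0.239%); on the right P100 (4.46% to 17.5%) and total exRNA (4.84% to 11.2%) lie above P40 and lysate.

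Further miR-378 products were seen in S100 alone. miR-378e had 1, 2 and 4 counts in the S100 libraries, miR-378f 4, 2 and 4, and miR-378g 4, 11 and 4, and each had 0 in the other 15 libraries. No count was listed for miR-378b, miR-378h, miR-378j or miR-422a. The mean S100 shares of miR-378e (0.00107%) and miR-378f (0.00158%) lie under the 0.00191% that a count of 0 allows in lysate replicate 2, the deepest of the other libraries. A difference from any single library was therefore not detectable. For miR-378e, miR-378f and miR-378g, S100 was not set against pooled libraries. That of miR-378g (0.00291%) lies above this limit for lysate replicate 2 and under the limits of the other 14 libraries. The 2 products with a RefSeq mature sequence are shown because one of them departs from the family seed.
miR-378f: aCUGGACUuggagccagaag
miR-378g: aCUGGGCUuggagucagaag
miR-378f differs from miR-378a-3p by U14C over its 20 bases. miR-378g differs by A6G, inside the seed, which gives it the seed CUGGGCU. Both are 1 base away from miR-378a-3p, which had 34307 counts in S100, and the part of misread miR-378a-3p molecules in these low counts was not tested.

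Across the 18 libraries, the miRNAs outside the family whose log2 CPM was most like that of miR-378a-3p were let-7b-5p (Pearson's r = 0.90), miR-1228-5p (0.88), miR-22-3p (0.87), miR-210-3p (0.86), miR-130b-3p (0.85), miR-483-5p (0.81), miR-193a-3p (0.81) and miR-345-5p (0.80). These are descriptions over libraries that fall into 5 groups, with S100 both high and deep. Over the 15 libraries without S100, r was 0.80 for let-7b-5p, a member of the growth-restraining let-7 family, and 0.64 for miR-345-5p. It was 0.56 for miR-483-5p, from an intron of IGF2, 0.46 for the hypoxia-induced miR-210-3p, 0.46 for miR-193a-3p, 0.45 for miR-130b-3p and 0.23 for miR-22-3p. let-7b-5p had 6213 ± 1806 CPM in S100 (SD, n = 3). It had 1539 ± 564 CPM in P100 (n = 4), 1867 ± 281 in P40 (n = 4), 1485 ± 160 in total exRNA (n = 4) and 4043 ± 1029 in lysate (n = 3), the same order as miR-378a-3p but for P100 and total exRNA. miR-1228-5p had 628.5 ± 272.4 CPM in S100 (n = 3) and 0 in all 12 libraries of P100, P40 and total exRNA. It had counts in 1 of the 3 lysate libraries, replicate 3, so its likeness rests on S100, and its r of 0.48 without S100 rests on that 1 library. Of the family's own products, miR-378c had r = 0.77 with miR-378a-3p over 18 libraries and 0.31 without S100, miR-378d 0.74 and 0.04, and miR-378a-5p 0.49 and -0.54.

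**Figure D5:**
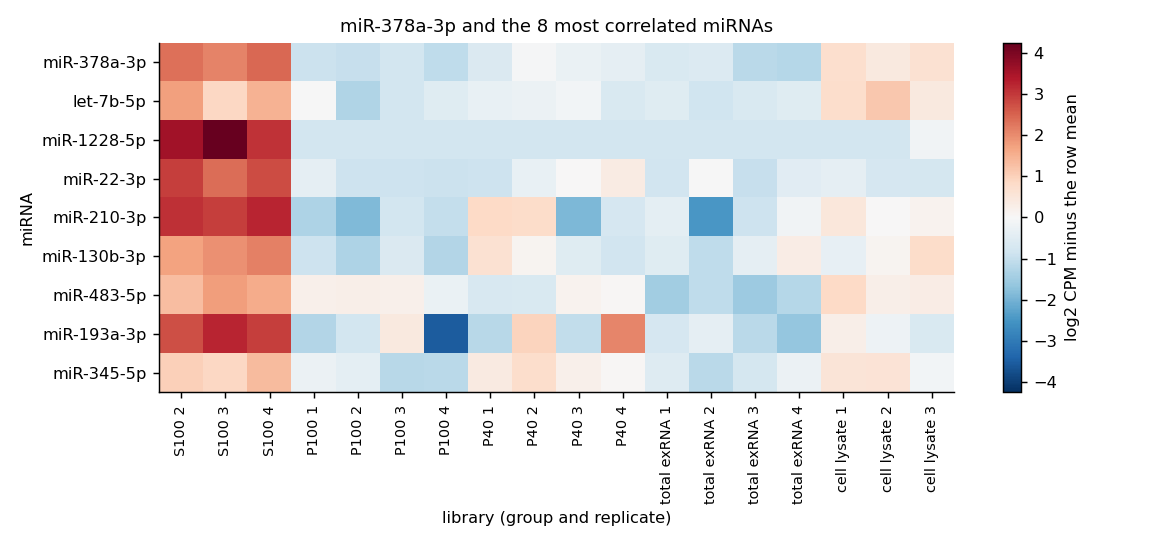
log2 CPM (prior count 2) of miR-378a-3p and the 8 miRNAs with the highest correlation to it, minus each row's mean, in the 18 libraries. Rows are miRNAs ordered by correlation, columns are libraries by group and replicate. The 3 S100 columns are red in every row, and let-7b-5p also follows the pale red of miR-378a-3p in lysate.

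A list of 20 miRNAs with reported roles in lipid, sterol, mitochondrial or brown fat metabolism, as miR-378 has, was set beside the family. Of these, 17 were tested. Against P100, 3 were called higher in S100 and 7 lower by edgeR, a median log2 fold change of -0.19 against -0.01 over all tested miRNAs. The 7 lower calls became 3 without the filter, 3 without S100 replicate 2 or 4, and 4 without S100 replicate 3 or total exRNA replicate 4. Against P40 the counts were 3 higher and 5 lower (median -0.50 against -0.30), and against total exRNA 2 higher and 6 lower (-0.56 against -0.34). Against lysate 5 were higher and 7 lower (-0.19 against -0.04). The 3 higher over P40 became 6 without the filter and 5 without P40 replicate 4 or any one lysate library. The 2 higher over total exRNA became 1 under 3 settings, among them the replicate block, and without S100 replicate 2, P100 replicate 3 or total exRNA replicate 1 or 3. Over lysate, the 5 higher became 2 at equal depth, and the 7 lower became 4 without the filter or without S100 replicate 3. Over all tested miRNAs 28.6% were called higher and 31.3% lower against P100, 25.1% and 27.8% against P40, 29.5% and 33.9% against total exRNA, and 32.2% and 30.0% against lysate, so both directions were about as common there, and nothing particular to the list is read from its counts. Of the other 6 comparisons, P100 over P40 gave 0 calls by edgeR and 0 by DESeq2, with 0 higher and 2 lower at an unadjusted p under 0.05 in edgeR, where 4.85% of all tested miRNAs were called. P100 over total exRNA gave 1 higher and 5 lower (27.8% called), P100 over lysate 3 and 4 (37.4%), and P40 over lysate 1 and 3 (26.9%). Total exRNA over lysate gave 3 and 3 (35.2%). P40 over total exRNA gave 0 higher and 1 lower by edgeR (0 and 5 both by DESeq2 and at an unadjusted p under 0.05 in edgeR; 11.5% called).

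The 4 most abundant tested miRNAs of that list, ranked by mean CPM over all 18 libraries, did not follow miR-378a-3p in S100. Most of these libraries were not S100, so this ranking favours miRNAs that are low in S100. By mean CPM in S100, miR-193b-3p (4146) and miR-30b-5p (3359) were the highest tested miRNAs of the list. Nothing about the list as a whole is read from these 4. miR-103a-3p, which restrains insulin signalling in mouse liver and fat, fell to 2386 ± 512 CPM in S100 (SD, n = 3), against 62690 ± 16330 in lysate (n = 3), an edgeR log2 fold change of -4.71 ± 0.43 (SE, adjusted p = 6.74e-09). It was also lower in S100 than in P100 (-1.80 ± 0.36, edgeR adjusted p = 0.000243), P40 (-2.73 ± 0.38, adjusted p = 3.9e-06) and total exRNA (-3.54 ± 0.39, adjusted p = 1.5e-07). Its near-identical relative miR-107 can exchange reads with it. miR-182-5p, of a cluster with miR-96 and miR-183, was lower in S100 than in P100 (-2.80 ± 0.62, edgeR adjusted p = 0.0007), P40 (-3.33 ± 0.63, adjusted p = 0.000194) and total exRNA (-2.72 ± 0.61, adjusted p = 0.000629). Against lysate it was lower by -2.17 ± 0.62 (edgeR adjusted p = 0.00444), a call lost without S100 replicate 3 (-1.70, edgeR adjusted p = 0.0567). miR-203a-3p, an epithelial differentiation miRNA, was lower in S100 than in total exRNA (-1.82 ± 0.39, edgeR adjusted p = 0.000328) and lysate (-1.85 ± 0.40, adjusted p = 0.000412; lost without the filter, -1.07, adjusted p = 0.079). Its values of -0.96 ± 0.38 against P100 (edgeR adjusted p = 0.0352) and -1.11 ± 0.38 against P40 (adjusted p = 0.0178) passed the test, but both calls were lost with DESeq2 (adjusted p = 0.0868 and 0.054), without the filter (-0.28 and -0.47, edgeR adjusted p = 0.789 and 0.658) and without any one of the 3 S100 libraries (edgeR adjusted p = 0.0836 to 0.319 and 0.0711 to 0.290). Both were also lost with S100 replicate 1 kept in and without P40 replicate 3 or 4, total exRNA replicate 4 or any one lysate library, and that against P100 was lost without P100 replicate 3 or 4. miR-27b-3p, a regulator of adipocyte formation, had -0.91 ± 0.32 against total exRNA (edgeR adjusted p = 0.0155) and 0.08 ± 0.33 against lysate (edgeR adjusted p = 0.859). The call against total exRNA was lost without any one of the 3 S100 libraries (edgeR adjusted p = 0.133, 0.315 and 0.126). It was also lost without the filter (edgeR adjusted p = 0.503) and at equal depth (edgeR adjusted p = 0.0554). The same held without P40 replicate 3 or 4, total exRNA replicate 2 or 4, or any one lysate library.

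The miRNAs of the list called higher in S100 than in lysate were miR-30c-5p, miR-193b-3p, miR-33a-5p, miR-27a-3p and miR-455-5p, named here after their values were seen. Their edgeR log2 fold changes were 2.93, 2.76, 2.14, 1.73 and 1.53 in that order. The edgeR adjusted p-values were 0.00107, 1.13e-05, 0.00428, 0.000173 and 0.0459. At equal depth 2 were called higher. The 7 called lower were miR-103a-3p, miR-182-5p and miR-203a-3p, given above, and miR-455-3p (-4.34), miR-107 (-3.78), miR-155-5p (-1.685) and miR-196a-5p (-1.67). miR-455-3p is the opposite arm of miR-455-5p. miR-33a-5p lies in the sterol regulator gene SREBF2 and restrains cholesterol export, and miR-193b-3p has a role in brown fat in mouse.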

How the data were processed

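Per the labels, small RNA libraries (RealSeq-AC kit, version 2) were sequenced as 50-bp single reads. The authors deposited raw counts per mature miRNA, 1 file per library, listing miRNAs with at least 1 count; absent names were taken as 0. cutadapt 1.16, FastQC, Bowtie2 and GRCh38 (hg38) are named per the submitters' processing notes. Filters, multi-match handling and miRNA release are not given in the sources used here. Of 19 libraries, 18 were used in the main fit. miRNAs were kept by filterByExpr (227 of 1043, 98.5% to 99.1% of counts) and tested in 1 edgeR 4.0.16 quasi-likelihood fit (R 4.3.3, TMM, robust) over 5 groups and 10 comparisons, with Benjamini-Hochberg adjustment and a threshold of 0.05. The script was tested on simulated data. The members, lists and rules were chosen with earlier results of these data known. Named were the 4 members, other miR-378 products with a count, the 8 miRNAs most correlated with miR-378a-3p, and the 4 most abundant tested metabolic miRNAs. Alternatives were DESeq2 1.42.0, no TMM, no filter, a replicate block and 2-group fits. Further ones were equal depth (1 random draw of 10017 counts a library), S100 replicate 1 kept in, summed members, and each library left out. Numbers pair samples by labelled batch; same-numbered libraries' deviations correlated by -0.03 on average (32 pairs, -0.57 to 0.31), others by 0.01. No replicate pair agreed within sampling noise (lowest chi-square per degree of freedom 4.34). Hairpins were placed with RefSeq and GENCODE on GRCh38.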

Additional observations from a re-analysis of the deposited data

Results flagged for a closer look

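The S100 library with 48 counts in all, replicate 1, was left out of the main fit and entered only the alternative that kept it in. It held 6 counts of miR-378a-3p and 1 of miR-378c, so the family made up 14.6% of its counts (exact 95% binomial interval 6.07% to 27.8%), above the 1.70% of the highest lysate library and beside 5.61% to 6.08% in the other S100 libraries. At this depth a count of 0 allows a share of up to 6.25%.

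In P40, replicate 1 stood apart from the other 3 libraries in its share of miR-378a-3p, with 0.812% against 1.03% to 1.07%. In total exRNA, replicate 2 stood apart in the share of the family held by miR-378c, with 4.66% against 6.80% to 7.00%. These were 2 of 27 groups of 4 libraries examined for a library far from the rest, and chance flags about 1 in 20.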

How the results depend on the processing

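miR-378a-3p kept its direction under all 26 alternatives in 9 of 10 comparisons, and under 20 of 26 in P100 over total exRNA (-0.27 to 0.08). With DESeq2 its log2 fold change was 3.46 for S100 over P100, 2.90 over P40 and 2.10 over lysate, and -1.36 for P100 over lysate. DESeq2 moved the median of all tested miRNAs by 0.21, 0.29, 0.43 and 0.18 in these comparisons. Without the filter the S100 values were 3.89 (P100), 3.27 (P40), 3.63 (total exRNA) and 2.40 (lysate). By library size alone it had 1.87 for S100 over lysate, -0.84 for P100 over P40, -0.57 for P40 over lysate and -1.17 for total exRNA over lysate, with the median moved by 0.20, -0.21, 0.33 and 0.31. At equal depth P100 over lysate gave -1.32, with the median moved by 0.27. With 1 library left out, S100 gave 3.17 to 3.53 over P100, 2.54 to 3.05 over P40, 3.09 to 3.54 over total exRNA and 1.68 to 2.13 over lysate, and P100 over lysate -1.61 to -1.34.

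miR-378c in S100 over total exRNA was 3.83 without the filter and 3.32 to 3.73 with 1 library left out. Over lysate it was 3.92 with DESeq2, 4.18 without the filter, 3.78 with S100 replicate 1 kept in and 3.48 to 3.99 with 1 library left out. miR-378d in S100 over lysate was 5.04 without the filter and 4.39 to 5.34 with 1 library left out, and over P40 2.43 to 5.10. Without 1 library it ran over 0 in P100 over P40 (-2.14 to 0.46), P100 over lysate (-0.56 to 0.78), P40 over total exRNA (-1.24 to 1.21) and P40 over lysate (-0.29 to 2.26). Its share of the family in lysate was 0.429% at equal depth, against 0.137% ± 0.134 (SD, n = 3). The family's share in lysate was 1.73% of the effective library size.

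miR-378a-5p lost 1 call, S100 over P100 at equal depth (1.54), and gained 1, P100 over lysate without lysate replicate 2 (0.55 to 1.94 with 1 library left out). With the replicate block it kept its calls, for example 1.67 for S100 over P100 (edgeR adjusted p = 0.00675), and miR-378a-3p had 1.74 for S100 over lysate. The replicate block moved 1 count of the metabolic list by over 1.5 times and ended no other call named here.

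Counts of the metabolic list moved more. Without the filter S100 had 3 lower over P100, 6 higher over P40 and 4 lower over lysate. That setting also gave 0 higher in P100 over total exRNA, 0 lower in P40 over total exRNA, and 1 higher and 0 lower in total exRNA over lysate. S100 over total exRNA had 1 higher by library size alone, with the replicate block and at equal depth, and S100 over lysate 2 higher at equal depth. Library size alone gave 2 lower in P100 over P40 and 3 higher in P40 over lysate. DESeq2 gave 5 lower in P40 over total exRNA (0 in a 2-group fit), 4 higher in P40 over lysate and 5 higher in total exRNA over lysate. With 1 library left out, S100 had 3 to 7 lower over P100, 2 to 5 higher over P40, 1 to 3 higher over total exRNA and 4 to 7 lower over lysate. P100 had 0 to 1 higher over total exRNA and 1 to 3 higher over lysate. P40 had 0 to 2 higher and 1 to 2 lower over total exRNA, and 1 to 2 higher over lysate. Total exRNA had 1 to 4 higher and 1 to 4 lower over lysate. Where no median is given, the cause was not tested. Outside S100, each group held 2 to 10 pooled counts of miR-378d and 0 of miR-378i, miR-378e, miR-378f and miR-378g.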
